A study of Neotoma stephensi and Rattus norvegicus with 6 samples.

Results

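The mitochondrial carriers of the Slc25 family were examined in foregut tissue of 2 rodent species. The members were every gene in the deposited files whose symbol starts with Slc25a or equals Ucp1, Ucp2 or Ucp3. This gave 47 of the 15481 genes in the files. The 3 woodrats were wild-caught female Stephens' woodrats (Neotoma stephensi), which were fed juniper foliage. The 3 lab rats were female Sprague Dawley rats (Rattus norvegicus) from a commercial breeder, which were fed rat chow. The labels call all 6 animals virgins, whereas the methods state this for the lab rats alone, and no age was given. The sample from each animal was a section of the fornix ventricularis, the upper nonglandular part of the stomach, and polyA RNA was sequenced from 1 library per animal. Species, diet, origin and housing changed together, so their shares in any difference cannot be told apart.

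Carriers of this family sit in the inner mitochondrial membrane, with few exceptions, and move metabolites between the cytosol and the matrix. They exchange ADP for ATP, import phosphate, pass citrate, malate, aspartate, glutamate and acylcarnitines, and bring in cofactors, iron and glutathione. The uncoupling proteins belong to the same family. In the stratified squamous epithelium and the smooth muscle of a stomach wall, such carriers link fuel oxidation in the matrix to lipid, amino acid and heme synthesis outside it.

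The libraries held between 5439642 and 7932637 counted reads. The reads of both species had been aligned to mouse coding transcripts, and the files give no genome positions. Abundance is given as CPM (counts scaled to a common library total) after TMM normalization, which sets the libraries to a common scale. CPM is not corrected for transcript length, so levels are compared between animals for 1 gene and not between genes. A fold change is woodrat over lab rat on the log2 scale, with its standard error (SE), and the FDR is the Benjamini-Hochberg adjusted p of edgeR's quasi-likelihood test over all 12603 genes that reached 1 CPM in 3 or more animals. The threshold was an FDR of 0.01. A count of 3 reads, taken as the detection floor, corresponded to between 0.355 and 0.586 CPM. Floors cover counting error only. How well a woodrat or lab rat read aligns to mouse was not tested gene by gene, and for a single member it cannot be told apart from a species difference in abundance. Every gene in the files has woodrat reads while 809 have no lab rat reads, so a carrier read in lab rats alone would not be among these members.

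The tissue label was checked against marker genes. All 10 squamous epithelium markers were measured, with summed levels of 5247 to 16024 CPM in woodrats and 7932 to 9210 CPM in lab rats. Of these, 0 passed the threshold (edgeR; 0 at an unadjusted p below 0.05 and 0 by DESeq2). Krt15 weighed most in the sum, with 3900, 7650 and 8680 CPM in woodrats 1, 2 and 3. Krt14 spread less among woodrats (509, 714 and 797 CPM). Dsc3 (5.27, 76.8 and 228 CPM, SE 0.98) and Pkp1 (26.6, 115 and 598 CPM, SE 0.89) spread far more. All 10 were lowest among woodrats in woodrat 1. With such spread, the lack of calls does not show a like squamous content in all animals. Of the 11 gastric gland markers, 8 were in the files and their sum was 6.74 to 12.9 CPM over the 6 animals. Pgc, Tff2, Gkn1, Gkn2, Muc5ac and Muc6 had no lab rat reads. Of the gland markers 2 were tested, and 1 passed the threshold, higher in woodrats. This was Muc5ac, with 17, 12 and 33 reads in woodrats 1, 2 and 3 (edgeR, FDR = 0.00305). It passed the filter on low values through the woodrats alone, so it was bound to differ. Without lab rat 1 or 3 it was not called. The other, Atp4a, had 5.69 to 6.05 CPM in woodrats and 6.74 to 9.76 CPM in lab rats (FDR = 0.216). Smooth muscle markers summed to 40986 to 125263 CPM in woodrats and 11276 to 20532 CPM in lab rats. Of the 10, 4 passed the threshold, all higher in woodrats (40.0%, against 20.0% of all tested genes). In edgeR 9 had an unadjusted p below 0.05, and DESeq2 called 8. The number past the threshold was 1 without lab rat 1 or 3 and 7 without woodrat 3. In such bulk samples, fewer cells of a type and less RNA per cell cannot be told apart.

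Of the 47 members, 44 passed the filter on low values and were tested. Slc25a2, Slc25a47 and Slc25a54 did not pass it, with 18, 7 and 18 reads over the 6 animals. The filter itself favoured some members. Slc25a18, Slc25a21 and Slc25a29 passed it through the woodrats alone, and Slc25a34, Slc25a48 and Ucp3 through the lab rats alone, so these 6 were bound to differ. Slc25a31, Slc25a52, Slc25a53 and Ucp1 were not analysed here.

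The summed level of the family lay lower in woodrats than in lab rats, while single carriers differed in both directions. The summed CPM of all 47 members was 1962, 1907 and 1681 in woodrats 1, 2 and 3, against 2010, 2190 and 2737 in lab rats 1, 2 and 3. Each woodrat was therefore below each lab rat, although woodrat 1 and lab rat 1 were close. The 3 most-read members, Slc25a3, Slc25a4 and Slc25a5, made up 960 to 1226 CPM of this in woodrats and 1094 to 1633 CPM in lab rats, and these ranges overlapped. The other 44 members summed to 722 ± 14.3 CPM (SD, n = 3) for woodrats, against 1012 ± 93.9 CPM (SD, n = 3) for lab rats, without overlap. Among them, Ucp2, Slc25a20 and Slc25a1 lay furthest apart in mean CPM. They had 37.0, 17.8 and 49.7 CPM in woodrats, against 198, 94.5 and 114 CPM in lab rats. These 3 members weigh heavily in the sum, so it does not show a lower level across the family.

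Among the 44 tested members, 12 passed the threshold (27.3%), against 20.0% of all tested genes. Of these, 5 were higher in woodrats (11.4%, against 10.3% of all tested genes) and 7 were higher in lab rats (15.9%, against 9.71%). At an FDR below 0.05 there were 24 members (54.5%, against 39.9%). In 30 of the 44 (68.2%) all animals of one species lay above all of the other, which was the case for 56.2% of all tested genes. All 6 members that passed the filter through 1 species alone are among these 30. Slc25a18, Slc25a21, Slc25a34 and Slc25a48 are also among the 12 past the threshold. Both counts thus hold members that were bound to differ, and the same filter applied to all tested genes. The median log2 fold change was -0.18 in the family, also with the genes unread in lab rats set to their lower bound, and 0.03 over all tested genes. These shares are a description of the members. With 1 animal left out, the number past the threshold was 3 without lab rat 1, 4 without lab rat 2, 4 without lab rat 3, 8 without woodrat 1, 3 without woodrat 2 and 13 without woodrat 3. The number over all genes moved likewise, from 2516 with all animals to between 898 and 2626.

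**Figure D1:**
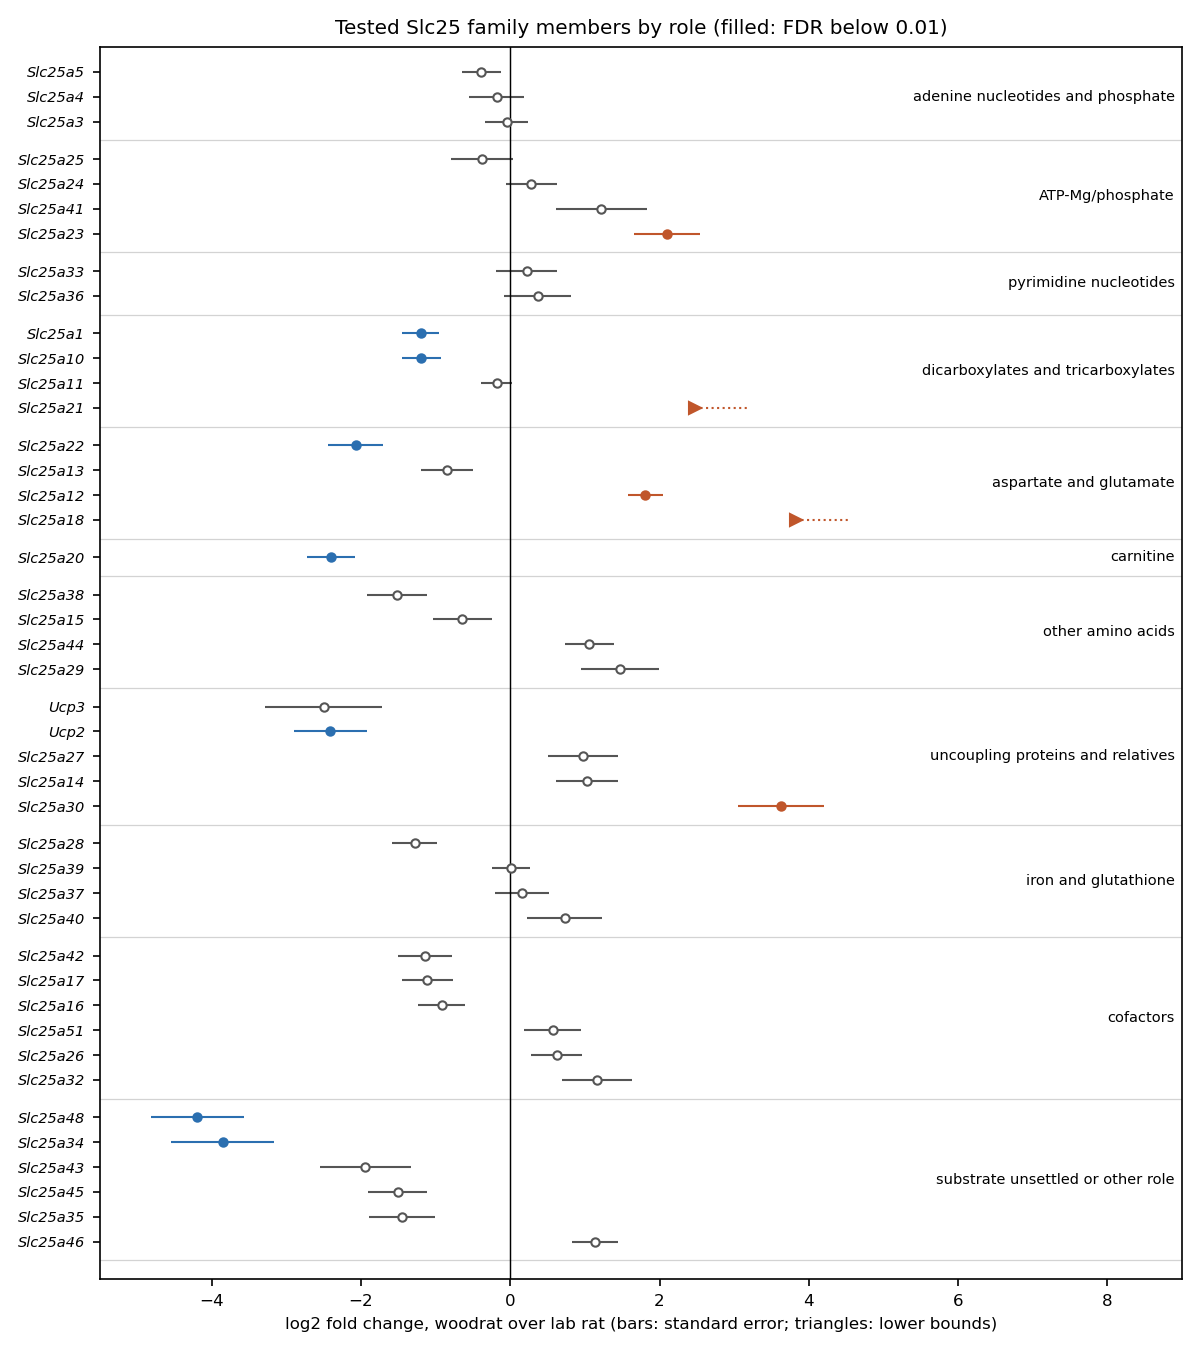
The tested members that are reported singly are plotted by role (rows) against the log2 fold change of woodrat over lab rat (x axis, 0 means equal abundance), with points for the estimate, bars for its standard error and filled symbols for members at an FDR below 0.01. Orange symbols (higher in woodrats) and blue symbols (higher in lab rats) number 5 and 7, and triangles mark the lower bounds of Slc25a18 and Slc25a21, which had no lab rat reads.

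The carriers that serve ATP export, which are the most heavily read members, did not pass the threshold. Slc25a3, the phosphate carrier, had 516, 586 and 424 CPM in woodrats 1, 2 and 3, against 451, 458 and 670 CPM in lab rats 1, 2 and 3. Its log2 fold change was -0.05 (SE 0.29, FDR = 0.908), and the species overlapped. Slc25a5, the ADP/ATP translocase of proliferating and most other cells, had 427, 402 and 407 CPM in woodrats, against 471, 510 and 637 CPM in lab rats. These ranges did not overlap, but the log2 fold change of -0.39 (SE 0.26, FDR = 0.260) did not pass the threshold. Slc25a4, the translocase of heart and muscle, had 283, 211 and 128 CPM in woodrats, against 172, 206 and 326 CPM in lab rats (log2 fold change -0.18, SE 0.37, FDR = 0.722). For this group of 3, edgeR gave 0 members past the threshold, 0 at an unadjusted p below 0.05, and DESeq2 gave 0.

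Slc25a4 and Slc25a5 encode close paralogs, whose reads can be hard to divide. The ratio of Slc25a4 to Slc25a5 reads within an animal was 0.661, 0.526 and 0.315 in woodrats 1, 2 and 3, against 0.366, 0.404 and 0.513 in lab rats 1, 2 and 3. The species overlapped, and the ratio differed by 0.18 on the log2 scale (two-sided exact permutation test, p = 0.600, adjusted p = 0.771 over 9 pairs of carriers). Without woodrat 1 this difference was -0.06. Among the woodrats, Slc25a4 was highest in woodrat 1, which had the highest smooth muscle sum (125263 CPM). It was lowest in woodrat 3, which had the lowest smooth muscle sum among woodrats (40986 CPM). Lab rat 3 had more Slc25a4 than any woodrat (326 CPM), with a smooth muscle sum of 20532 CPM. The part of muscle in these values was not tested.

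Slc25a23, a calcium-regulated carrier that exchanges ATP-Mg for phosphate, was higher in woodrats. It had 99.2, 51.9 and 32.6 CPM in woodrats 1, 2 and 3, against 12.3, 19.5 and 11.0 CPM in lab rats 1, 2 and 3. Each woodrat was above each lab rat, with woodrat 1 far above the others, and the difference was 4.28-fold (log2 fold change 2.10, SE 0.44, FDR = 0.00694). The other ATP-Mg/phosphate carriers did not pass the threshold. Slc25a24 had 13.6 ± 3.15 CPM in woodrats, against 11.1 ± 3.46 CPM in lab rats (FDR = 0.529), Slc25a25 had 8.67 ± 4.69 and 11.4 ± 2.30 CPM (FDR = 0.496), and Slc25a41 had 1.98 ± 1.34 and 0.785 ± 0.290 CPM (FDR = 0.142).

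The balance among these carriers can be read within each library, without any scaling between libraries. Reads of Slc25a23 exceeded those of Slc25a24 by 8.76, 4.25 and 1.90 times in woodrats 1, 2 and 3 and by 1.06, 1.36 and 1.46 times in lab rats 1, 2 and 3. The ratio was 3.21-fold higher in woodrats (exact permutation test, p = 0.10, adjusted p = 0.180), and 0.1 is the smallest p that 3 animals against 3 allow. The ratio of Slc25a25 to Slc25a24 was 0.397 to 0.800 in woodrats and 0.849 to 1.38 in lab rats, again without overlap (exact permutation test, p = 0.10, adjusted p = 0.180). For Slc25a23, the FDR was between 0.0130 and 0.0353 when lab rat 1, 2 or 3 or woodrat 1 or 2 was left out, and 0.0132 with total counts in place of TMM. The 2 pyrimidine nucleotide carriers, Slc25a33 and Slc25a36, had log2 fold changes of 0.22 (FDR = 0.695) and 0.37 (FDR = 0.533), with overlap between species. Neither was called by DESeq2 or at an unadjusted p below 0.05.

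The carriers of citric acid cycle intermediates split by gene. Slc25a1, the citrate carrier that supplies cytosolic acetyl-CoA for lipid synthesis, had 59.8, 48.7 and 40.5 CPM in woodrats 1, 2 and 3, against 102, 109 and 132 CPM in lab rats 1, 2 and 3. It was 2.30-fold lower in woodrats, with each woodrat below each lab rat (log2 fold change -1.20, SE 0.25, FDR = 0.00636). Slc25a10, which exchanges malate or succinate for phosphate, had 8.79, 9.99 and 10.5 CPM in woodrats, against 19.4, 23.5 and 24.3 CPM in lab rats. The animals of each species were close to one another and the species were apart (log2 fold change -1.19, SE 0.26, FDR = 0.00882). Slc25a11, the oxoglutarate-malate carrier, had 80.1 ± 8.40 CPM in woodrats, against 90.9 ± 6.39 CPM in lab rats, a difference within the error of the fit (log2 fold change -0.18, SE 0.21, FDR = 0.522).

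Slc25a21, which carries the oxoadipate formed in lysine and tryptophan breakdown, had 15, 28 and 10 reads in woodrats 1, 2 and 3 and 0 reads in each lab rat. This corresponds to 2.93, 3.89 and 1.18 CPM in woodrats. With the lab rats set to the floor of 3 reads per library, the woodrat mean was at least 5.53-fold higher (FDR = 0.00494). The levels are low, and woodrat 3, with 1.18 CPM, was the nearest to its floor of 0.355 CPM. These calls were sensitive to single animals. For Slc25a1 the FDR was 0.0151 to 0.0324 without lab rat 1, 2 or 3 or woodrat 2 or 3. For Slc25a10 it was 0.0142 to 0.0387 without any 1 animal, 0.0153 with total counts and 0.0102 without a filter, and for Slc25a21 it was 0.0105 to 0.0180 without lab rat 1, 2 or 3 or woodrat 1 or 2.

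Among the aspartate and glutamate carriers, Slc25a12 and Slc25a18 were higher in woodrats and Slc25a22 was higher in lab rats. Slc25a12 (aralar) and Slc25a13 (citrin) encode the aspartate-glutamate carriers of the malate-aspartate shuttle, which brings reducing equivalents into mitochondria. Slc25a12 had 92.8, 86.9 and 69.6 CPM in woodrats 1, 2 and 3, against 23.3, 26.1 and 21.6 CPM in lab rats 1, 2 and 3. Both species were tight and far apart, with a 3.51-fold higher level in woodrats (log2 fold change 1.81, SE 0.23, FDR = 0.00114). Slc25a13 had 3.91, 5.97 and 6.63 CPM in woodrats, against 11.7, 10.8 and 7.51 CPM in lab rats. It lay lower in each woodrat than in each lab rat without passing the threshold (log2 fold change -0.85, SE 0.35, FDR = 0.0816).

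The read ratio of Slc25a12 to Slc25a13 was 23.8, 14.6 and 10.5 in woodrats 1, 2 and 3, against 2.00, 2.43 and 2.87 in lab rats 1, 2 and 3. It was 6.33-fold higher in woodrats, without overlap (exact permutation test, p = 0.10, adjusted p = 0.180). Slc25a12 remained past the threshold without any 1 animal, with FDR values from 0.00102 to 0.00770 and log2 fold changes from 1.72 to 1.92.

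Slc25a22 and Slc25a18 encode the mitochondrial glutamate carriers known as GC1 and GC2. Slc25a22 had 4.49, 6.38 and 10.9 CPM in woodrats 1, 2 and 3, against 26.8, 36.4 and 29.5 CPM in lab rats 1, 2 and 3. It was 4.20-fold lower in woodrats (log2 fold change -2.07, SE 0.37, FDR = 0.00362). Slc25a18 had 12, 38 and 109 reads in woodrats, or 2.34, 5.27 and 12.9 CPM, and 0 reads in each lab rat. Lab rats thus had reads of 1 of these carriers and woodrats of both. Of the 159 Slc25a18 reads over the 3 woodrats, 109 came from woodrat 3. Against the floor of 3 reads per lab rat library, the woodrat mean of Slc25a18 was at least 14.2-fold higher (FDR = 0.00420). Without lab rat 1, 2 or 3 or woodrat 2, the FDR was 0.0110 to 0.0177 for Slc25a22 and 0.0111 to 0.0191 for Slc25a18.

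Enzymes that work with these carriers were read from a list of 12 genes for the malate-aspartate and citrate shuttles. In this list, 3 genes were higher in woodrats and 1 was higher in lab rats, or 33.3% of the 12 against 20.0% of all tested genes, with a median log2 fold change of 0.16. Mdh1, the cytosolic malate dehydrogenase of the shuttle, had 135 ± 9.32 CPM in woodrats, against 368 ± 104 CPM in lab rats (log2 fold change -1.44, FDR = 0.00509). Idh2, the mitochondrial NADP-dependent isocitrate dehydrogenase, had 506 ± 145 CPM in woodrats, against 167 ± 24.2 CPM in lab rats (log2 fold change 1.60, FDR = 0.00463). Its cytosolic counterpart Idh1 and the mitochondrial malic enzyme Me2 were also higher in woodrats, with log2 fold changes of 1.34 (FDR = 0.00319) and 1.70 (FDR = 0.00637). The shuttle transaminases Got1 and Got2 had log2 fold changes of -0.15 (FDR = 0.674) and -0.80 (FDR = 0.0263). Leaving out lab rat 1, lab rat 2 or woodrat 2 left 0 genes of this list past the threshold, and without woodrat 3 there were 5.

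**Figure D2:**
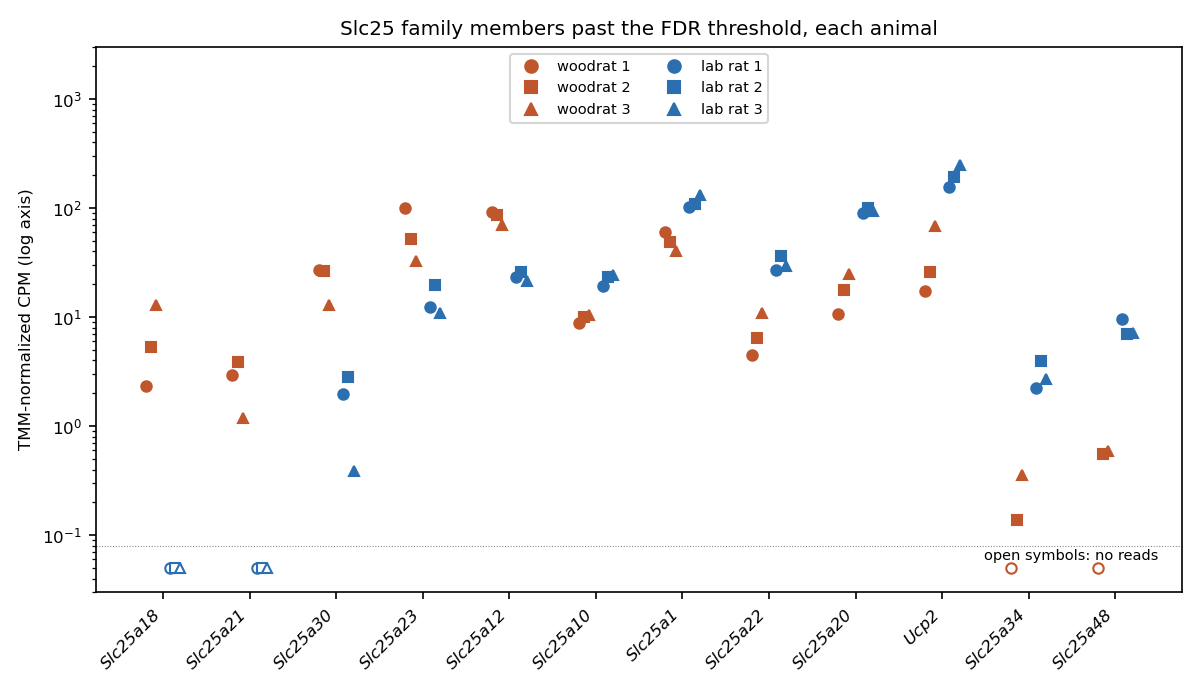
Each of the 12 members at an FDR below 0.01 (x axis) is shown with its TMM-normalized CPM on a log axis (y axis) in woodrats 1 to 3 (orange) and lab rats 1 to 3 (blue), ordered from the highest to the lowest log2 fold change, with open symbols below the dotted line for animals without reads. The species do not overlap for any of the 12, and Slc25a12 and Slc25a20 have little spread within lab rats.

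Slc25a20, the carnitine-acylcarnitine carrier that takes long-chain fatty acids into the matrix for oxidation, was among the clearest differences. It had 10.7, 17.9 and 24.9 CPM in woodrats 1, 2 and 3, against 89.8, 99.9 and 93.8 CPM in lab rats 1, 2 and 3. The highest woodrat was well below the lowest lab rat, and the level was 5.26-fold lower in woodrats (log2 fold change -2.40, SE 0.32, FDR = 0.00132). The call held without any 1 animal (FDR from 0.000799 to 0.00786, log2 fold change from -2.71 to -2.14).

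The carnitine shuttle around it was read from a list of 8 genes, of which 1 was higher in woodrats and 1 in lab rats (25.0%, against 20.0% of all tested genes, median log2 fold change -0.63). Cpt2, the transferase of the inner membrane that acts next after Slc25a20, had 13.3, 20.0 and 29.4 CPM in woodrats, against 88.6, 113 and 112 CPM in lab rats. Its difference of -2.32 (SE 0.32, FDR = 0.00150) was thus close in size to that of the carrier. Cpt1a, the liver-type transferase of the outer membrane, had 22.3 ± 11.6 CPM in woodrats, against 47.2 ± 21.2 CPM in lab rats, with overlap (FDR = 0.106). Slc22a5, the carnitine transporter of the plasma membrane, was low but higher in woodrats, with 3.98 ± 0.347 CPM against 0.703 ± 0.150 CPM (log2 fold change 2.44, SE 0.42, FDR = 0.00319). It passed the filter through the woodrats alone, so it was bound to differ. With 1 of lab rats 1, 2 and 3 or woodrat 2 left out, 1 gene of the list passed the threshold, and 2 did without woodrat 1 or 3.

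Among the uncoupling proteins and their relatives, 1 member was higher in each species. Ucp2, which is widely expressed and prominent in immune cells, had 17.4, 26.0 and 67.8 CPM in woodrats 1, 2 and 3, against 156, 191 and 247 CPM in lab rats 1, 2 and 3. It was 5.32-fold lower in woodrats, which spread 3.90-fold among themselves (log2 fold change -2.41, SE 0.49, FDR = 0.00630). Slc25a30, also known as kidney mitochondrial carrier protein 1, had 27.0, 26.4 and 13.0 CPM in woodrats, against 1.99, 2.81 and 0.385 CPM in lab rats. Each woodrat was above each lab rat, and lab rat 3 had 2 reads (log2 fold change 3.63, SE 0.58, FDR = 0.00248).

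The other members of this group did not pass. Ucp3, known from skeletal muscle and brown fat, had 1, 0 and 7 reads in woodrats, against 16, 16 and 10 reads in lab rats (log2 fold change -2.50, SE 0.78, FDR = 0.0331). Without woodrat 3, its log2 fold change was -4.43 and its FDR 0.00590. Slc25a14 and Slc25a27, relatives named for brain expression, had log2 fold changes of 1.03 (FDR = 0.0789) and 0.97 (FDR = 0.130), and for both each woodrat was above each lab rat. The FDR of Ucp2 was 0.0101 to 0.0281 without lab rat 1, 2 or 3 or woodrat 1 or 2, and 0.0130 with total counts. That of Slc25a30 was 0.0112 without lab rat 1 and 0.0108 without woodrat 2.

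The sum of immune cell markers, like Ucp2, lay lower in woodrats. Of 10 listed, 9 were in the files and 6 were tested. Of these 6, 5 were higher in lab rats and 0 in woodrats (83.3%, against 20.0% of all tested genes). The count was 2 without lab rat 1 or woodrat 2. Ptprc and Itgam reached 1 CPM in lab rats alone, so they were bound to differ. Cd68 was nearly level (log2 fold change -0.09, FDR = 0.899). The markers summed to 10.7 to 24.6 CPM in woodrats and 68.8 to 105 CPM in lab rats. Within woodrats both the sum (10.7 CPM) and Ucp2 (17.4 CPM) were lowest in woodrat 1. The sum was highest in woodrat 2 (24.6 CPM), whereas Ucp2 was highest in woodrat 3 (67.8 CPM). Within lab rats the sum was highest in lab rat 1 (105 CPM), in which Ucp2 was lowest (156 CPM). The part of immune cells in the Ucp2 difference was not tested. Adipocyte genes were read from a list of 9, which covers fat cells as a whole and does not single out brown fat. Of these, 7 were in the files and 5 were tested. In each species 1 was higher (40.0% called, against 20.0% of all tested genes). Fabp4 lay lower in woodrats without passing the threshold (log2 fold change -1.49, FDR = 0.0181). Lpl (0.17, FDR = 0.834) and Pnpla2 (0.15, FDR = 0.756) were nearly level. Cidea, known from brown fat and sebaceous glands, was lower in woodrats (1.91 ± 0.163 against 53.4 ± 11.2 CPM, FDR = 0.000105), whereas Plin4, a lipid droplet protein, was higher (366 ± 109 against 45.1 ± 10.5 CPM, FDR = 0.000711).

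None of the 4 iron and glutathione carriers passed the threshold in edgeR, 1 had an unadjusted p below 0.05, and DESeq2 called 1. Slc25a28, or mitoferrin 2, which imports iron in most cells, came closest. It had 26.8, 28.9 and 19.2 CPM in woodrats 1, 2 and 3, against 47.2, 51.9 and 82.2 CPM in lab rats 1, 2 and 3. Each woodrat was below each lab rat (log2 fold change -1.28, SE 0.30, FDR = 0.0110), and the FDR was 0.00773 with total counts and 0.00152 by DESeq2. Slc25a37, or mitoferrin 1, the importer of red cell precursors, had 9.84 ± 3.68 CPM in woodrats, against 8.88 ± 1.80 CPM in lab rats (log2 fold change 0.16, FDR = 0.748). The read ratio of Slc25a37 to Slc25a28 was 0.248, 0.312 and 0.722 in woodrats, against 0.145, 0.185 and 0.124 in lab rats, 2.56-fold higher in woodrats and without overlap (exact permutation test, p = 0.10, adjusted p = 0.180).

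Slc25a39, an importer of glutathione, was nearly level, with 115 ± 3.55 CPM in woodrats, against 114 ± 28.5 CPM in lab rats (log2 fold change 0.01, SE 0.25, FDR = 0.973). With DESeq2's size factors the value was -0.02. Its paralog Slc25a40 had 4.36 ± 1.01 and 2.60 ± 1.48 CPM (FDR = 0.277), and the ratio of the pair overlapped between species (exact permutation test, p = 0.50, adjusted p = 0.750).

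The heme and iron-sulfur list held 16 genes, of which 6 were higher in lab rats and 1 in woodrats (43.8%, against 20.0% of all tested genes, median log2 fold change -0.99). Alas2, the erythroid form of the first enzyme of heme synthesis, had 0.643 ± 0.121 CPM in woodrats, against 5.14 ± 0.057 CPM in lab rats (log2 fold change -2.99, FDR = 0.00143). It passed the filter through the lab rats alone, so it was bound to differ. Urod and Alad, which act later in the pathway, had log2 fold changes of -1.92 (FDR = 0.00420) and -1.77 (FDR = 0.00882). Uros went the other way, with 20.0 ± 7.86 CPM in woodrats, against 2.52 ± 0.609 CPM in lab rats (log2 fold change 2.97, FDR = 0.00140). The 2 hemoglobin genes in the files, Hba-a1 and Hbb-bs, summed to 11.4 to 35.4 CPM in woodrats and 248 to 492 CPM in lab rats, and the other 6 erythroid markers were not analysed here. The part of red cells in the heme list and in Slc25a28 was not tested. Without 1 animal, the heme count was 2 (woodrat 2 left out) to 6 (woodrat 3 left out).

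Slc25a38, which carries glycine for heme synthesis, had the most reads among carriers of other amino acids over the 6 animals, although Slc25a44 had more in woodrats (178 against 85 reads). It had 3.32, 5.14 and 3.67 CPM in woodrats 1, 2 and 3, against 7.20, 11.4 and 16.6 CPM in lab rats 1, 2 and 3, without overlap (log2 fold change -1.52, SE 0.40, FDR = 0.0180, and 0.00344 by DESeq2). The ornithine carrier Slc25a15 had an FDR of 0.222. Slc25a44, which carries branched-chain amino acids, had 8.59 ± 0.705 CPM in woodrats, against 4.07 ± 0.901 CPM in lab rats, and Slc25a29, a carrier of basic amino acids, had 2.08 ± 0.867 and 0.739 ± 0.107 CPM. Their log2 fold changes were 1.06 (FDR = 0.0322) and 1.47 (FDR = 0.0502). In this group edgeR gave 0 of 4 past the threshold and 3 at an unadjusted p below 0.05, and DESeq2 gave 1.

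The first steps of branched-chain amino acid breakdown were read beside Slc25a44. Of 7 genes, 2 were higher in lab rats and 0 in woodrats (28.6%, against 20.0% of all tested genes). Bcat2, the mitochondrial transaminase, had 58.0, 41.9 and 54.0 CPM in woodrats, against 100, 122 and 178 CPM in lab rats (log2 fold change -1.38, SE 0.29, FDR = 0.00667). Bcat1, the cytosolic one, had 0, 0 and 0.118 CPM in woodrats, against 6.08, 5.13 and 2.70 CPM in lab rats (FDR = 0.00115). It passed the filter through the lab rats alone, so it was bound to differ. The transaminases and the carrier thus lay in opposite directions, although the carrier did not pass the threshold. Leaving out 1 animal gave 1 gene of the list without lab rat 1, 2 or 3 or woodrat 2, and 2 genes without woodrat 1 or 3.

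The 7 cofactor carriers fell on both sides of 0 and none passed the threshold in edgeR. At an unadjusted p below 0.05 there were 5, and DESeq2 called 1. Slc25a17, a peroxisomal member that carries coenzyme A and related nucleotides, had 16.2, 27.9 and 42.6 CPM in woodrats 1, 2 and 3, against 68.6, 61.7 and 57.6 CPM in lab rats 1, 2 and 3. Each woodrat was below each lab rat (log2 fold change -1.11, SE 0.34, FDR = 0.0319). Without woodrat 3, the animal nearest to the lab rats, its log2 fold change was -1.50 and its FDR 0.00690. The coenzyme A carriers Slc25a16 and Slc25a42 also lay below 0, with log2 fold changes of -0.92 (FDR = 0.0485) and -1.14 (FDR = 0.0346). The carriers of S-adenosylmethionine (Slc25a26), folate and FAD (Slc25a32) and NAD (Slc25a51) lay above 0, from 0.57 to 1.16, with FDR values from 0.0802 to 0.255.

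Among the members with an unsettled substrate or another role, Slc25a34 and Slc25a48 were nearly unread in woodrats. Slc25a48, which has been linked to choline uptake by mitochondria, had 0, 4 and 5 reads in woodrats 1, 2 and 3, against 78, 42 and 37 reads in lab rats 1, 2 and 3. This was 0, 0.555 and 0.592 CPM against 9.68, 6.95 and 7.13 CPM, a log2 fold change of -4.19 (SE 0.62, FDR = 0.00184), and the call held without any 1 animal (FDR from 0.00186 to 0.00864). Slc25a34 had 0, 1 and 3 reads in woodrats, against 18, 24 and 14 reads in lab rats (log2 fold change -3.85, SE 0.69, FDR = 0.00375). The woodrat values of Slc25a34 were at or below the floor of 3 reads. Its FDR was 0.0108 to 0.0182 without lab rat 1, 2 or 3 or woodrat 2.

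The other 4 tested members of this group did not pass the threshold. Slc25a46, an outer membrane member involved in mitochondrial shape, had 28.9, 24.3 and 36.0 CPM in woodrats, against 16.1, 14.9 and 9.25 CPM in lab rats (log2 fold change 1.14, SE 0.31, FDR = 0.0197, and 0.00493 by DESeq2). Slc25a35, Slc25a43 and Slc25a45 lay lower in woodrats, with log2 fold changes from -1.94 to -1.45 and FDR values from 0.0186 to 0.0350. In each of these 4 genes the species did not overlap.

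**Figure D3:**
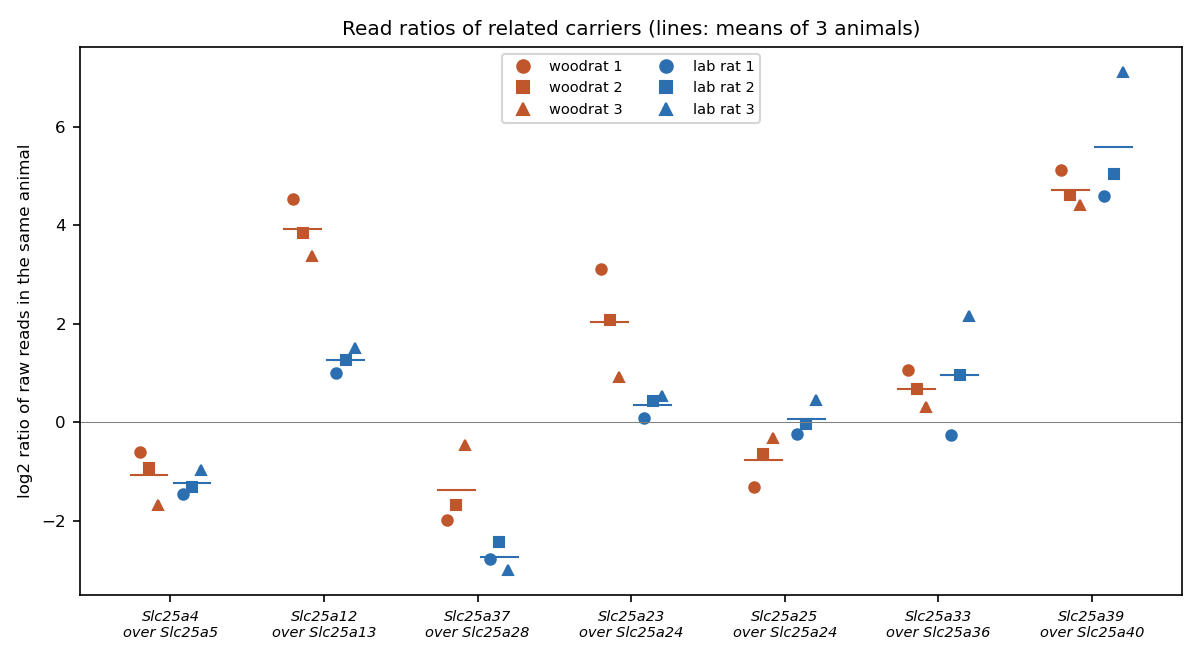
For 7 pairs of related carriers (x axis), the log2 ratio of raw reads within the same animal (y axis, 0 means equal reads) is shown for woodrats (orange) and lab rats (blue), with lines for the mean of 3 animals. Slc25a12 over Slc25a13, Slc25a37 over Slc25a28, Slc25a23 over Slc25a24 and Slc25a25 over Slc25a24 do not overlap between species, whereas the other 3 pairs overlap.

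Of the 9 pairs of related carriers compared by read ratio, 5 did not overlap between species. Lack of overlap by itself gives the smallest p possible with 3 animals against 3. Taken singly, 56.2% of all tested genes did not overlap in CPM. The pairs of Slc25a23 and of Slc25a25 with Slc25a24 share a denominator, so they are not separate results. The ratio of Ucp3 to Ucp2 overlapped (exact permutation test, p = 0.900, adjusted p = 0.900), as did that of Slc25a33 to Slc25a36 (p = 0.800, adjusted p = 0.900). The ratio of Slc25a18 to Slc25a22 was 0.522, 0.826 and 1.18 in woodrats and 0 in each lab rat. With no lab rat reads of Slc25a18, this pair was bound not to overlap. None of the adjusted values was below 0.180, so no pair is called different by this test.

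The woodrats varied more among themselves in this family than the lab rats did. The median coefficient of variation of the 44 tested members was 34.5% in woodrats and 24.1% in lab rats, while over all tested genes it was 26.3% and 26.6%. Among the 7 members higher in lab rats, woodrat 1 had the lowest and woodrat 3 the highest woodrat value in 6. Slc25a1 was the exception. Over all tested genes, woodrat 1 was lowest in 39.1% and woodrat 3 highest in 37.9%, and over the 44 members in 40.9% and 45.5%. Of the 5 members higher in woodrats, Slc25a12, Slc25a23 and Slc25a30 were highest in woodrat 1. Woodrat 1 was highest in 37.6% of all tested genes and in 29.5% of the 44 members. The smooth muscle sum was 125263, 60521 and 40986 CPM in woodrats 1, 2 and 3, and the squamous sum was 5247, 10828 and 16024 CPM. Smooth muscle and squamous markers therefore ran in opposite directions over the same 3 animals, and their part in the carrier values was not tested. Without woodrat 1, the log2 fold change of Slc25a23 was 1.56 in place of 2.10.

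**Figure D4:**
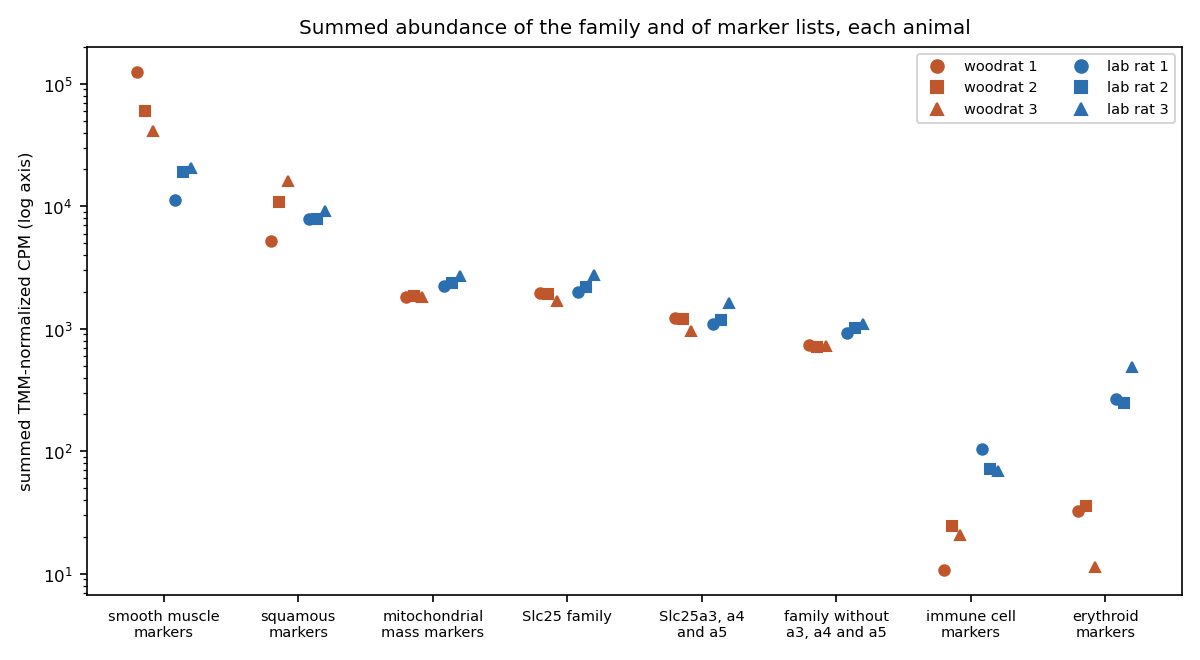
Summed TMM-normalized CPM (log y axis) of the family, of 2 parts of it and of 5 marker lists (x axis) is plotted for each woodrat (orange) and lab rat (blue). The smooth muscle sum spans 40986 to 125263 CPM in woodrats and 11276 to 20532 CPM in lab rats, while the sum of the family without Slc25a3, Slc25a4 and Slc25a5 is 707 to 736 CPM in woodrats and 916 to 1104 CPM in lab rats.

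General markers of mitochondria were read on a list of 14 genes such as citrate synthase and the voltage-dependent anion channels. None passed the threshold (edgeR), 7 had an unadjusted p below 0.05 and DESeq2 called 2, with a median log2 fold change of -0.45. Their sum was 1827 ± 19.6 CPM in woodrats, against 2430 ± 235 CPM in lab rats, without overlap. The 11 mitochondrially encoded genes in the files lay the other way, with sums of 130015, 91262 and 59008 CPM in woodrats 1, 2 and 3, against 49971, 52280 and 66389 CPM in lab rats 1, 2 and 3, which overlapped.

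Newly made carriers are taken up by Tomm70a, a receptor of the outer membrane, and inserted by the translocase built on Timm22. Of 15 tested genes of this import route, 1 was higher in woodrats and 2 were higher in lab rats (20.0%, equal to the share among all tested genes). Timm22 had 5.08, 4.03 and 4.74 CPM in woodrats, against 17.5, 15.9 and 27.4 CPM in lab rats (log2 fold change -2.13, SE 0.33, FDR = 0.00225). Tomm70a had 147, 167 and 181 CPM in woodrats, against 75.6, 80.6 and 84.9 CPM in lab rats (log2 fold change 1.04, SE 0.22, FDR = 0.00729). The receptor and the insertase core thus differed in opposite directions, each without overlap. The third, Tomm5, a small subunit of the outer membrane pore, had a log2 fold change of -1.42 (FDR = 0.00626). The count was 0 without woodrat 2, 2 without woodrat 1 and 1 without any other 1 animal.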

How the data were processed

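Foregut polyA RNA of 3 woodrats and 3 lab rats was measured by stranded RNA-Seq. The authors trimmed the read pairs with Trimmomatic, merged them with FLASH, aligned them with cross_match to mouse coding transcripts and deposited raw read counts per mouse gene, without normalization; tool versions are not given in the sources used here. Reads of close paralogs may be split between genes, and woodrat reads lie farther from mouse than lab rat reads do. Species and animal numbers were taken from the sample titles.

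Tables of the 6 animals were merged on the Ensembl identifier (Python 3.11.15, pandas 2.3.3). A gene was tested if 3 or more animals reached 1 CPM. TMM factors ranged from 0.8362 to 1.113, and species were compared with the quasi-likelihood test of edgeR 4.0.16 (R 4.3.3) in its older form, with a prior count of 0.125. The SE is the log2 fold change divided by the root of F. Replicates are separate animals. Their counts differed by more than sampling noise (chi-square per degree of freedom from 10.1 to 121 within species). Read ratios used 0.5 added to each count. Alternatives were other filters and scalings, DESeq2 1.42.0, the replicate number as a block and each animal left out, with the genes tested kept. The fit was tested on simulated counts.

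Named members were all past an FDR of 0.01, those in the pairs, the most-read of each role and those unread in a species, and others are named where a group is described. From the lists, genes past the threshold were named, up to 4 per list. Got1, Got2 and Cpt1a are named for their place in the shuttles. Cd68 and the striated muscle genes other than Ckm were named after their values were seen. The members and lists were chosen with earlier results of these data known. Some genes are counted in their groups but not reported singly here. No reference sequence was used, so no sequences are printed.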

Additional observations from a re-analysis of the deposited data

How the results depend on the processing

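Depth limits the low members most, since 3 reads are between 0.355 and 0.586 CPM. The count of 12 members past the threshold was 9 to 12 under the other filters, scalings and quasi-likelihood method, and 18 with DESeq2, while the count over all genes went from 2516 to 3916 with DESeq2 and 716 under the block. It was 24 at an FDR below 0.05 and 3 to 13 with 1 animal left out. The 5 higher in woodrats became 3 at 5 CPM and 3 with genes read in both species, where the 2 members unread in lab rats were not tested, and 1 to 5 with 1 animal left out. The 7 higher in lab rats became 12 with DESeq2, 17 at an FDR below 0.05 and 2 to 8 with 1 animal left out. The accompanying lists held 39 genes past the threshold, 63 at an FDR below 0.05 and 15 to 39 with 1 animal left out. Over all 12603 tested genes, 2516 (20.0%) passed the threshold and 5026 (39.9%) had an FDR below 0.05. With 1 animal left out, 898 to 2626 of all tested genes passed. The 39 include Muc5ac, Slc22a5, Alas2, Bcat1, Arg2, Ptprc and Itgam, which were bound to differ through the filter. Deviations from the species means correlated at -0.289, -0.088 and -0.279 between like-numbered animals, which gives no sign of pairing. Under the replicate block, 4 members passed, 2 in each direction, and 10 genes of the lists; the members were Slc25a12, Slc25a20, Slc25a30 and Ucp2. Changes of sign were found in 5 members and 3 read ratios, none of them past its threshold. Slc25a39 was -0.02 with DESeq2's size factors and with DESeq2, and -0.10 to 0.24 with 1 animal left out. The ranges with 1 animal left out were -0.03 to 0.51 for Slc25a33, -0.47 to 0.13 for Slc25a4, -0.17 to 0.37 for Slc25a37 and -0.20 to 0.16 for Slc25a3. The log2 ratio difference with 1 animal left out was -0.06 (without woodrat 1) to 0.48 for Slc25a4 over Slc25a5, -0.88 to 0.33 (without lab rat 3) for Slc25a33 over Slc25a36, and -0.96 to 0.36 (without woodrat 2) for Ucp3 over Ucp2. The causes were not tested.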

Other observations

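Genes of the urea cycle, ornithine and proline metabolism, which share substrates with the ornithine and glutamate carriers, included 4 of 12 higher in woodrats and 0 higher in lab rats (33.3%, against 20.0% of all tested genes, median log2 fold change 0.91). Arg1, the cytosolic arginase, had 8.20, 26.9 and 37.5 CPM in woodrats 1, 2 and 3 and 2.23, 1.82 and 3.08 CPM in lab rats 1, 2 and 3 (log2 fold change 3.36, SE 0.57, FDR = 0.00311). Arg2, the mitochondrial arginase, was also higher in each woodrat, with 5.60 ± 3.53 CPM against 0.555 ± 0.354 CPM (log2 fold change 3.37, FDR = 0.00534). It passed the filter through the woodrats alone, so it was bound to differ. Glud1, which oxidizes glutamate, had 150 ± 42.0 CPM in woodrats, against 63.5 ± 5.24 CPM in lab rats (log2 fold change 1.24, FDR = 0.00758). Without lab rat 1, 2 or 3 this list had 0 genes past the threshold, without woodrat 2 it had 1, and without woodrat 1 it had 5.

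Mitochondrial transport proteins outside the family were read on a list of 10 genes, of which 2 were higher in woodrats and 0 in lab rats (20.0%, equal to the share among all tested genes). Mcu, the pore subunit of the mitochondrial calcium uniporter, had 37.2 ± 5.77 CPM in woodrats, against 10.5 ± 3.76 CPM in lab rats (log2 fold change 1.81, FDR = 0.00418). The list count was 0 without lab rat 2 and 1 without lab rat 1 or woodrat 2. Of the 10 regulators of mitochondrial biogenesis tested, 0 passed the threshold in edgeR, 3 had an unadjusted p below 0.05 and DESeq2 called 0. Of the striated muscle list, 6 genes were tested and Ckm, muscle creatine kinase, was higher in woodrats (227 ± 96.5 against 26.3 ± 10.1 CPM, FDR = 0.00141). Others lay the other way without passing the threshold, with log2 fold changes of -3.13 for Myh4 (FDR = 0.0147) and -2.06 for Tnnt3 (FDR = 0.0321), which were named after their values were seen.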
